A study of Homo sapiens with 6 samples.

Results

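The 53 genes described here were the most strongly raised transcripts of SK-N-BE(2) cells carrying a hairpin against BRG1, after several gene families and single genes were set aside by name. They were chosen from the measured values themselves. A gene was taken when the mean of its 3 shBRG1 arrays exceeded the mean of its 3 control arrays by at least 0.8 on the log2 scale, when its lowest shBRG1 value lay above its highest control value, and when its shBRG1 mean was at least 5. Of 14883 genes with a symbol, 76 met these 3 criteria (0.511%), and 23 of them were left out by name: 4 microRNA loci, 3 ZNF genes, 4 LINC transcripts, 2 KDM genes, 2 protocadherins, 2 antisense transcripts, 1 divergent transcript and the 5 genes FN1, NF2, MAP2K6, TP53INP1 and KLHDC3. Of the remaining 53, 52 are protein-coding and LOC90246 is a long non-coding RNA. Because the contrast between shBRG1 and control chose them, their changes are given as descriptions and without a test.

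SK-N-BE(2), a cell line grown from a human neuroblastoma, is known for its amplified MYCN gene. Cells were transduced with a pLKO lentivirus that expressed a hairpin against BRG1 (shBRG1, n = 3) or a hairpin with no silencing target (NSC, n = 3). At 48 h from infection total RNA was isolated, of which 200 ng per sample went onto 1 Affymetrix array. All 6 samples therefore share the line, the medium, which held insulin, transferrin and selenium, and a viral infection. Nothing in the labels says whether the triplicates were separate cultures. No probe set used here carried the symbol SMARCA4, the gene of BRG1, so the depletion was not analysed here and the arrays are described by their labels.

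BRG1 is the ATPase of SWI/SNF complexes, which slide or evict nucleosomes at promoters and enhancers. Such remodelling can open a regulatory region to activators, and it can also serve repression, so transcripts may go either way when the ATPase is reduced. The raised genes share no pathway by their choice. They take in lipid phosphatase-related and adhesion proteins of neurons, secreted antagonists of growth factors, regulators of mTORC1, enzymes of diphthamide synthesis and of mitochondria, subunits of ubiquitin ligases and regulators of microtubules.

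The promoter sequences of the 4 members with the largest changes among those matched are shown first, because a remodeller of nucleosomes acts on such regions and because these genes were high together. RefSeq promoter sequences (GRCh38.p14) of 300 bases, 250 before and 50 after the start of the gene, were matched by symbol for 45 of the 53 members. The 4 below belong to TMEFF2 (chr2:192194884-192195183, minus strand), ANKRD52 (chr12:56258335-56258634, minus strand), MARVELD1 (chr10:97713480-97713779, plus strand) and SFXN2 (chr10:102714386-102714685, plus strand). They are written 5′ to 3′ on the gene's own strand, and capitals mark every match of the 6 motifs searched on both strands. These were the E-box CACGTG, the AP-1 motif TGANTCA, the CRE motif TGACGTCA, the CCAAT box, the TATA box TATAAA and the GC box GGGCGG, which reads CCGCCC on the other strand. No 2 of these matches overlap in the sequences shown.
TMEFF2: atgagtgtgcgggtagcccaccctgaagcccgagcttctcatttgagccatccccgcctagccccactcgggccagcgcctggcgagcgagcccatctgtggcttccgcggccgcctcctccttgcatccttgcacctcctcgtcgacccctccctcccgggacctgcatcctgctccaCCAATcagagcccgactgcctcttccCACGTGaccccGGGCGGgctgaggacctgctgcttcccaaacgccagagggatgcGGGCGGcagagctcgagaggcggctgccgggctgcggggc
ANKRD52: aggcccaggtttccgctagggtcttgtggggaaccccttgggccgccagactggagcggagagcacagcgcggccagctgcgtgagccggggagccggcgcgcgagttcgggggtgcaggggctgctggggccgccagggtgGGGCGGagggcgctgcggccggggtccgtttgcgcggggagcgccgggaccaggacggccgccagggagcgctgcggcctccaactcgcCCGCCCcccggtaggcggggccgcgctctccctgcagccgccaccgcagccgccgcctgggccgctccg
MARVELD1: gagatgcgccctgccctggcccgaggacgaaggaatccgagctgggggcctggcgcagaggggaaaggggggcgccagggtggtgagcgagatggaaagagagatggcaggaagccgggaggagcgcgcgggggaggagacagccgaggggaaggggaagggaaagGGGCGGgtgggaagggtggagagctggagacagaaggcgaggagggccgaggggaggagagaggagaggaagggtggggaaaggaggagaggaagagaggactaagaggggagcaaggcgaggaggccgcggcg
SFXN2: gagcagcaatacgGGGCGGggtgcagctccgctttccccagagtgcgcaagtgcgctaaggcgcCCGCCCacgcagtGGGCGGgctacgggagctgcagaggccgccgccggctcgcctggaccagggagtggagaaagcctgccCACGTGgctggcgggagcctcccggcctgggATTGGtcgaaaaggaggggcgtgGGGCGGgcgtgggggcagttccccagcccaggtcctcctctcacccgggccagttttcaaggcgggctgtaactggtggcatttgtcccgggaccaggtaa

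All 4 promoters held at least 1 GC box, and those of TMEFF2 and SFXN2 also held 1 E-box and 1 CCAAT box each. The E-box CACGTG is the core site of MYC and MYCN proteins and of several other basic helix-loop-helix factors. It was present in 6 of the 45 member promoters (13.3%), those of TMEFF2, SFXN2, CBX6, DPH2, KICS2 and DYRK1B. The share was 10.5% among 6112 named genes whose shBRG1 mean was also at least 5, 9.02% among 10748 named genes and 7.43% among all 27305 promoters. GC boxes stood in 34 of 45 member promoters (75.6%), against 71.8% of those genes above the same floor and 44.6% of all promoters. CCAAT boxes stood in 19 (42.2%, against 37.7% and 35.7%). TATAAA was found in 4 members (8.89%, against 5.01% and 12.0%), which were DKK1, LOC90246, USP40 and AMN1. TGANTCA was found in 1 of the 45, the OMA1 promoter (2.22%, against 3.83% and 7.76%). TGACGTCA was also found in 1, that of TMEM120B (2.22%, against 3.48% and 1.98%). The median GC content was 65.3% in the members and 65.7% in the genes above that floor, and the median number of CpG dinucleotides was 26 and 27. By these features the member promoters lay close to those of other genes above the floor. A match of letters is a description of the window and not a bound site.

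The deposited values are log2 expression values. A value of 1 on this scale is a doubling of signal, and a level can be compared between arrays of the same gene but not between genes. Among the 53 members the change ran from 0.80 to 1.39, with a median of 0.94, which is a fold of 1.74 to 2.61 with a median of 1.93. A change of at least 1 was reached by 17 members. Over all named genes the median change was 0.01. The distance between the highest NSC and the lowest shBRG1 value ran from 0.34 in FBXL16 to 1.15 in PLPPR2, with a median of 0.74, and was at least 0.5 in 48 members. All 83 named genes with a change of at least 0.8 had groups that did not overlap, so that criterion removed none, whereas 20.3% of all named genes lay higher in shBRG1 without overlap. Large rises were fewer than large falls, since the mirrored criteria were met by 136 named genes (0.914%).

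**Figure D1:**
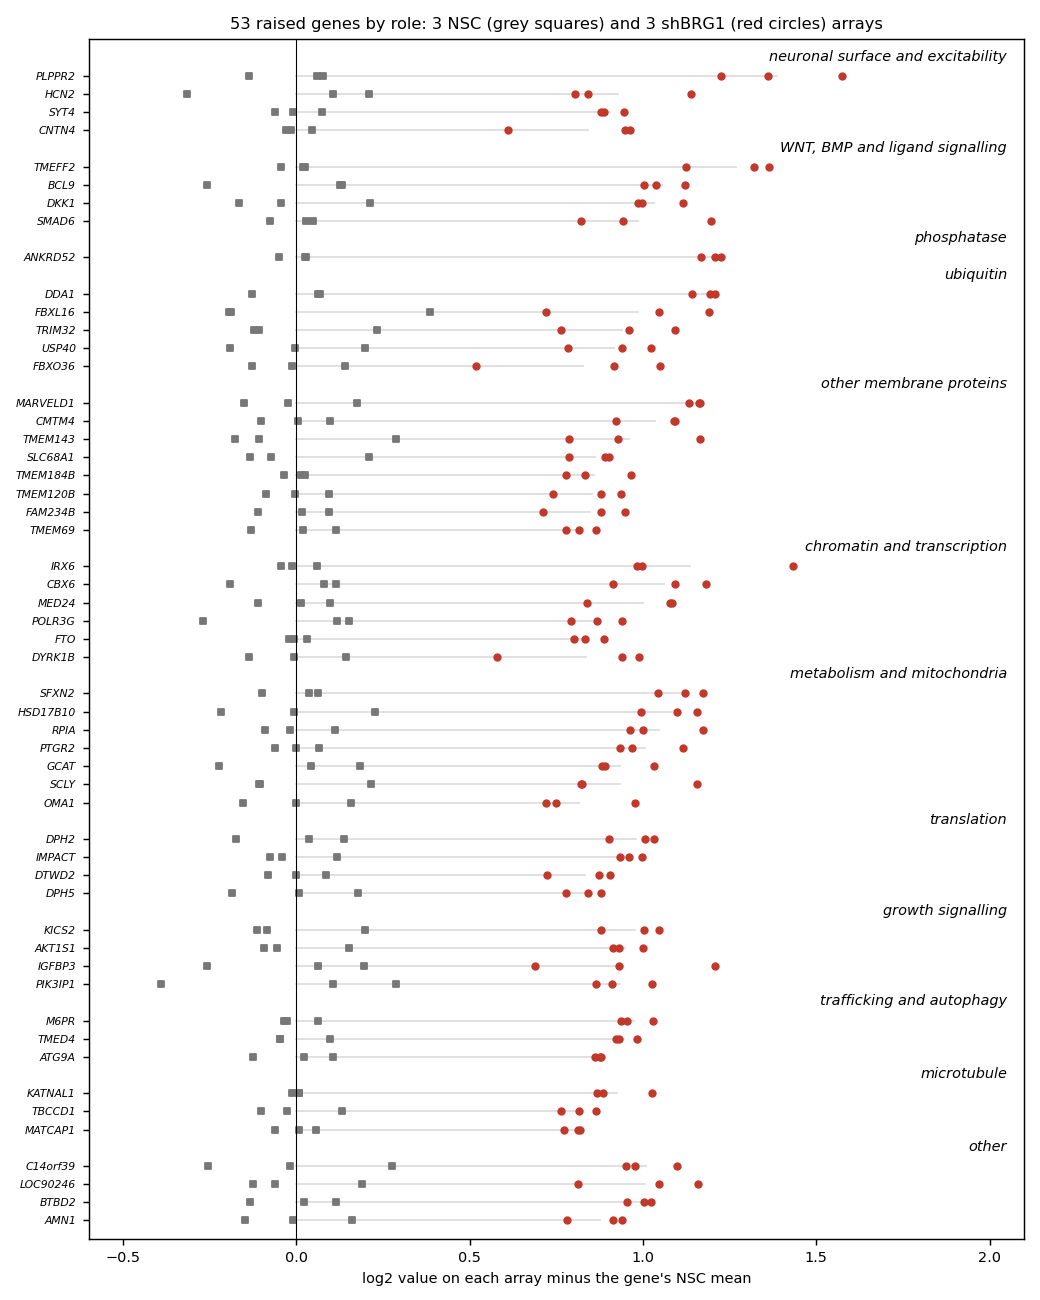
The 53 raised genes on the vertical axis, grouped by role, with the log2 value of each array minus the gene's NSC mean on the horizontal axis (grey squares, 3 NSC arrays; red circles, 3 shBRG1 arrays; the grey line runs to the mean change). PLPPR2 shows the largest mean change, 1.39, and the narrowest distance between the groups is that of FBXL16, 0.34.

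The arrays of a group did not weigh equally on these genes. NSC replicate 2 gave the lowest control value in 28 of the 53 members, and its median deviation from the NSC mean over them was -0.06. The same array was the lowest control for 50.4% of all genes with an shBRG1 mean of at least 5, with a median deviation of -0.03 over those that are not members. In shBRG1, replicate 2 was the highest array for 31 members, with a median deviation of 0.05. The SD among NSC arrays had a median of 0.13 in the members and 0.08 in all genes above that floor, whose NSC means had a median of 6.88 against 6.32 in the members, and among shBRG1 arrays 0.09 and 0.08. In 34 of 53 members the NSC arrays were wider apart than the shBRG1 arrays, against 51.7% of the genes above the floor. Of the members 5 had an NSC mean under 5 and passed the floor through shBRG1 alone. Without NSC replicate 2, 48 of the 53 members still met the criteria. Those lost were MATCAP1, OMA1, PIK3IP1, SLC68A1 and TBCCD1. Leaving out NSC replicate 1 lost DPH5, DYRK1B, FBXO36, HCN2 and TMEM69, and NSC replicate 3 lost DTWD2, FAM234B and POLR3G. Leaving out shBRG1 replicate 1 lost CNTN4, DTWD2, FBXO36 and TMEM69, replicate 2 lost DYRK1B, FAM234B, FBXO36, MATCAP1, OMA1 and TBCCD1, and replicate 3 lost CNTN4, DYRK1B, MATCAP1 and PIK3IP1.

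The labelled cell type was checked against marker lists. Of 15 measured sympathetic neuroblast markers 8 fell and 0 rose by limma at an adjusted p of 0.05, where 7.19% of named genes fell and 9.78% rose. The 4 with the smallest p were RET (from 10.48 ± 0.01 to 9.89 ± 0.07), CHGA (from 10.82 ± 0.02 to 10.34 ± 0.03), PHOX2A (from 8.88 ± 0.06 to 8.37 ± 0.06) and ALK (from 4.75 ± 0.05 to 4.20 ± 0.14). Of the 8 calls, that of CHGB was lost on leaving out NSC array 1, 2 or 3 or shBRG1 array 1 or 3 (highest adjusted p 0.080), and that of ISL1 was lost with probe sets averaged (0.053). TH, DBH, STMN2, DDC, GATA3, HAND1 and GFRA3 did not pass, with changes of 0.11, 0.08, 0.07, 0.06, 0.21, -0.32 and -0.12. Of 6 measured fibroblast and endothelial markers, 2 rose, DCN (change 0.44, adjusted p = 0.0092) and LUM (0.39, adjusted p = 0.027, lost on leaving out control replicate 2 or 3, or hairpin replicate 1 or 2, highest 0.081). The summed signal of these 6 markers, after conversion from log2, was 545.5 to 609.3 in NSC and 632.3 to 716.6 in shBRG1. The endothelial markers PECAM1, KDR and VWF had NSC means of 2.23, 3.05 and 3.27, whereas LUM, THY1 and DCN had NSC means of 8.24, 7.79 and 4.96. THY1, VWF, KDR and PECAM1 did not pass, with changes of -0.07, 0.06, -0.03 and -0.01. The part of these 6 markers in the results on the raised genes was not tested. None of 5 immune markers passed, and of 6 Schwann and glial markers 1 fell, the dim FOXD3 (change -0.24, adjusted p = 0.041, lost on leaving out any 1 array).

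**Figure D2:**
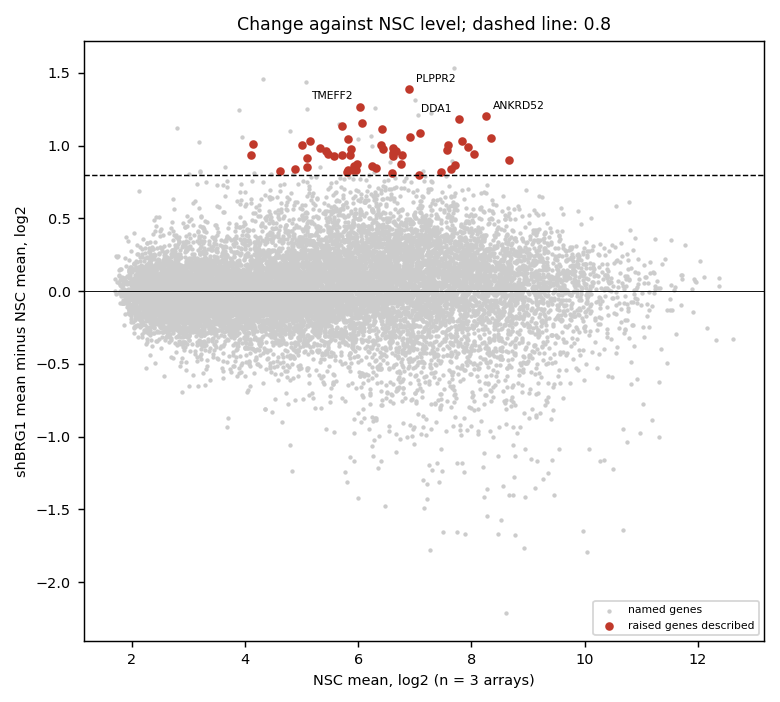
Change (shBRG1 mean minus NSC mean, log2) against the NSC mean for 14883 named genes (grey) and the 53 raised genes (red), with a dashed line at 0.8. The raised genes start from NSC means of 4.11 to 8.66, and falls reach further from 0 than rises.

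Neuronal membrane proteins held the largest change. PLPPR2 belongs to the phospholipid phosphatase-related proteins, membrane proteins of neurons that resemble lipid phosphate phosphatases. Its values were 6.97, 6.76 and 6.95 in NSC and 8.25, 8.47 and 8.11 in shBRG1. The groups were 1.15 apart, and the mean moved from 6.89 ± 0.12 to 8.28 ± 0.18 (SD, n = 3), a 2.61-fold difference. Its closest relatives had smaller changes. PLPPR1, PLPPR3, PLPPR4 and PLPPR5 had changes of 0.03, -0.27, 0.27 and -0.12, and 0 of the 4 passed the adjusted p of 0.05 in limma.

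In the wider list of lipid phosphate phosphatases, PLPPR proteins and receptors for lysophospholipids, 4 of 21 measured genes rose and 2 fell, PLPPR2, high by choice, among them, and the list median was 0.03 against 0.01 over all genes. PLPP6, a phosphatase of isoprenoid and other lipid phosphates, rose (0.78, SE 0.10, adjusted p = 0.0025). PLPP4 fell (-0.98, adjusted p = 3.3e-04), and so did S1PR2, a receptor for sphingosine 1-phosphate (-1.49, adjusted p = 3.0e-04). PLPP5 also rose (0.74, lost on leaving out NSC array 1 or 2 or shBRG1 array 1 or 2, highest adjusted p 0.10), as did LPAR6 (0.41, lost on leaving out NSC array 1 or 3 or shBRG1 array 1 or 2, highest adjusted p 0.074). In this list and those below, a raised gene that is also a member was high by choice. The counts of these lists, and of the symbol families, stand beside 9.78% higher and 7.19% lower over all named genes.

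SYT4, a synaptotagmin of secretory vesicles, moved from 8.66 ± 0.07 to 9.57 ± 0.04. The 3 shBRG1 values lay within 0.07 of each other. HCN2, a hyperpolarisation-activated cation channel of pacemaking cells, moved from 5.57 ± 0.28 to 6.50 ± 0.18, and CNTN4, an adhesion protein of the contactin family, from 4.88 ± 0.04 to 5.72 ± 0.20. Without NSC replicate 1 HCN2 no longer met the criteria, and CNTN4 no longer did so without shBRG1 replicate 1 or 3. Among relatives, 14 of 15 other measured synaptotagmins did not pass, and SYT11 fell (-0.32, adjusted p = 0.025, lost whichever array was left out, highest 0.080). None of 5 other contactins and neither HCN3 nor HCN4 passed. Of 25 measured genes of neurite outgrowth and neuronal adhesion, 2 rose (CNTN4 and LRRN3, 0.57, adjusted p = 0.0019) and 2 fell (NFASC, -0.66, and NRCAM, -0.26, the latter lost whichever array was left out). Over all named genes 9.78% rose and 7.19% fell, and the median of this list was -0.04.

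Among secreted and signalling factors, TMEFF2 had the second largest change of the 53. It encodes a transmembrane protein with follistatin-like domains and an EGF-like domain. Its values were 6.05, 6.05 and 5.98 in NSC and 7.15, 7.34 and 7.39 in shBRG1. The controls lay within 0.07 of each other, and the difference was 2.41-fold. No other gene of the list of follistatin-domain and EGF-like membrane proteins rose. Of 15 measured, TMEFF2 was the 1 higher, and NRG1 (-0.41, adjusted p = 0.011) and BTC (-0.28, adjusted p = 0.031, lost whichever array was left out) were lower. The shares over all named genes were 9.78% higher and 7.19% lower.

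The WNT genes were an antagonist and a co-activator. DKK1, a secreted antagonist that binds the co-receptors LRP5 and LRP6, gave 5.10, 4.98 and 5.35 in NSC and 6.14, 6.13 and 6.26 in shBRG1. BCL9, which links beta-catenin to its co-activators, gave 8.47, 8.09 and 8.47 in NSC and 9.38, 9.46 and 9.35 in shBRG1. In BCL9 the NSC array of replicate 2 lay 0.38 below the next control, and every shBRG1 array lay above all 3. Of partner genes gathered after the raised genes were known, and therefore given without a test, LRP5 moved from 6.47 ± 0.14 to 7.18 ± 0.07 and its groups did not overlap. Here and below, a lack of overlap stands beside 35.5% of all named genes whose groups did not overlap in either direction. LRP6 (0.11), BCL9L (-0.01), PYGO1 (-0.05) and PYGO2 (0.06) had changes of at most 0.11 in size. The DKK1 receptor KREMEN1 lay lower (-0.28), as did KREMEN2 (-0.12), both without overlap. DKK2, DKK3 and DKK4 did not pass in limma (changes 0.19, -0.45 and 0.08).

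SMAD6, an inhibitory SMAD that restrains BMP signalling, gave 6.55, 6.65 and 6.67 in NSC and 7.45, 7.82 and 7.57 in shBRG1. Its shBRG1 replicate 2 was the highest and all 3 lay at least 0.77 above the controls. Of 7 other measured SMAD genes, SMAD2, which transmits activin and TGF-beta signals, fell (-0.33, SE 0.06, adjusted p = 0.011), and SMAD4, the common partner, rose (0.30, adjusted p = 0.038, lost after cyclic loess scaling and on leaving out NSC array 1 or 2 or shBRG1 array 1, 2 or 3, highest 0.11).

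4 members encode proteins that restrain insulin, PI3K or mTORC1 signalling or bind its ligands. KICS2, a subunit of the KICSTOR complex that holds the GATOR1 inhibitor at the lysosome, gave 5.76, 6.07 and 5.79 in NSC and 6.75, 6.92 and 6.88 in shBRG1. AKT1S1 encodes PRAS40, an inhibitor within mTORC1 that AKT phosphorylates, and moved from 6.61 ± 0.13 to 7.56 ± 0.05. PIK3IP1, a transmembrane inhibitor of PI3K, was dim and moved from 4.11 ± 0.35 to 5.04 ± 0.08. It no longer met the criteria without NSC replicate 2 or shBRG1 replicate 3. IGFBP3, a secreted carrier of insulin-like growth factors, moved from 5.47 ± 0.23 to 6.41 ± 0.26. The 4 changes lay between 0.93 and 0.98, near the median of all members, 0.94. The rule admitted no change under 0.8 and the group was formed afterwards, so this closeness is not read as a trait of the group. Over the other settings PIK3IP1 ran from 0.74 to 1.08 and IGFBP3 from 0.81 to 1.07. KICS2 ran from 0.92 to 1.08 and AKT1S1 from 0.88 to 1.02.

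The other measured subunits of KICSTOR, GATOR1, TSC and mTORC1, a set gathered after the raised genes were known, are given without a test. NPRL3 of GATOR1 moved from 7.29 ± 0.11 to 7.85 ± 0.09, ITFG2 of KICSTOR from 7.42 ± 0.13 to 7.83 ± 0.08 and TSC1 from 7.45 ± 0.04 to 7.78 ± 0.14, and in none of the 3 did the groups overlap. DEPDC5 (0.28), also without overlap, and KPTN (0.27), with overlap, had smaller positive changes. MTOR (-0.02), RHEB (-0.10), TSC2 (0.08) and DEPTOR (0.08) stayed within 0.10 of 0, and of these only RHEB had groups without overlap. NPRL2, the partner of NPRL3 in GATOR1, moved from 5.42 ± 0.32 to 5.54 ± 0.08 with overlapping groups. Among the other IGF-binding proteins IGFBP5 rose in limma (0.59, SE 0.07, adjusted p = 0.0022), and IGFBP7 fell (-0.41, adjusted p = 0.013), a call lost without shBRG1 replicate 3 (0.0504).

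**Figure D3:**
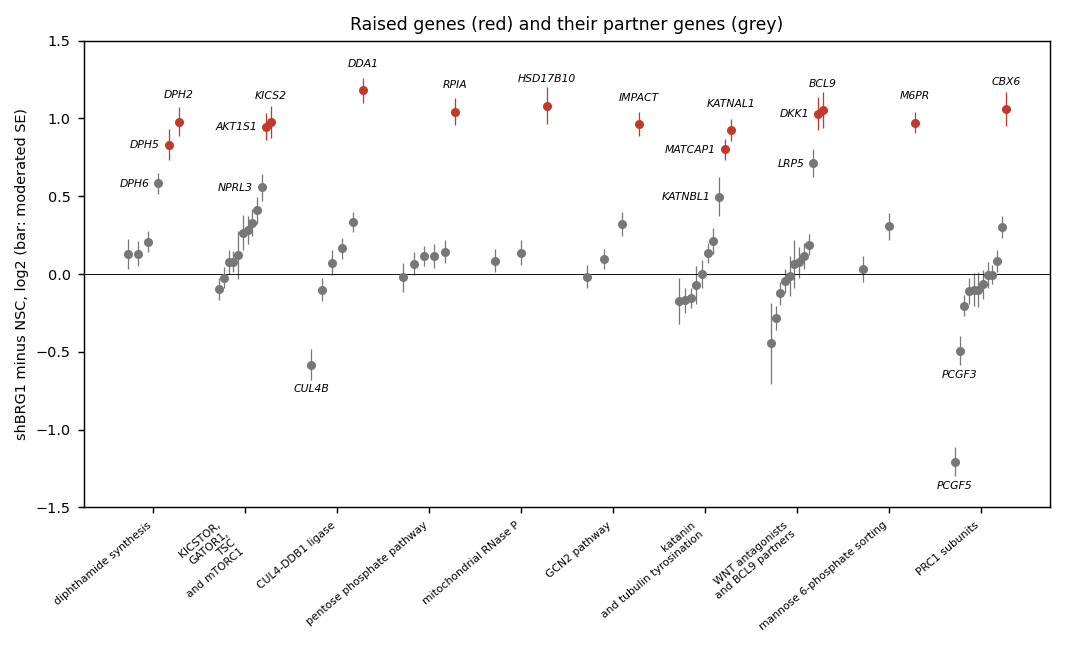
Change (log2, shBRG1 minus NSC) of 10 raised-gene pathways, with bars for the moderated standard error of limma; raised genes are red and their measured partner genes grey. In diphthamide synthesis DPH6 lies nearest to the raised DPH2 and DPH5, and among PRC1 subunits PCGF5 lies at -1.21 while CBX6 lies at 1.06.

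Translation and RNA metabolism gave a pair of genes from a single enzyme pathway. Diphthamide is a modified histidine of elongation factor 2, the target of diphtheria toxin, and it is built in steps by the DPH proteins. DPH2, which acts with DPH1 in the first step, gave 6.47, 6.27 and 6.58 in NSC and 7.47, 7.44 and 7.34 in shBRG1. DPH5, the methyltransferase of the next step, moved from 5.82 ± 0.18 to 6.65 ± 0.05 with a change of 0.83, and no longer met the criteria without NSC replicate 1. DPH6, the ligase of the last step, rose in limma (0.58, SE 0.07, adjusted p = 0.002) and kept its call without each array in turn. DPH1 (0.13) and DPH7 (0.13) did not pass (adjusted p = 0.32 and 0.42). EEF2, which encodes the modified factor, had a change of 0.21 (from 12.04 ± 0.04 to 12.25 ± 0.05).

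DTWD2, a tRNA-modifying enzyme, moved from 5.92 ± 0.08 to 6.75 ± 0.10, and POLR3G, a subunit of RNA polymerase III known from stem cells, from 7.72 ± 0.23 to 8.59 ± 0.07. NSC replicate 3 was the lowest control for POLR3G, and without it the gene no longer met the criteria, as DTWD2 did not. POLR3E, another polymerase III subunit, rose (0.44, adjusted p = 0.011), the only 1 of 9 other measured POLR genes to pass. IMPACT, which restrains the amino acid sensor GCN2, moved from 6.66 ± 0.10 to 7.63 ± 0.03. GCN2 itself (EIF2AK4) moved from 7.33 ± 0.10 to 7.65 ± 0.02 without overlap. GCN1 (0.10), also without overlap, and ATF4 (-0.02) lay near 0. These partners are given without a test.

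Enzymes and mitochondrial proteins formed a group of 7. SFXN2, a sideroflexin of mitochondria, gave 6.46, 6.32 and 6.49 in NSC and 7.47, 7.54 and 7.60 in shBRG1. HSD17B10, a mitochondrial dehydrogenase that is also a subunit of mitochondrial RNase P, gave 7.08, 6.87 and 7.32 in NSC and 8.25, 8.09 and 8.19 in shBRG1. The other RNase P subunits, TRMT10C (0.08) and PRORP (0.14), had small changes. SFXN3 fell (-0.40, adjusted p = 0.0063), against the direction of SFXN2, and SFXN4 rose (0.31, lost after cyclic loess and on leaving out NSC array 1, 2 or 3 or shBRG1 array 1 or 3, highest adjusted p 0.072).

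RPIA, the isomerase that makes ribose 5-phosphate in the pentose phosphate pathway, gave 5.81, 5.73 and 5.93 in NSC and 6.79, 6.996 and 6.82 in shBRG1. The other measured enzymes of its pathway, given without a test, were PGD, TALDO1, RPE, TKT and PGLS, with changes of -0.02 to 0.14. PTGR2, a prostaglandin reductase, gave 6.40, 6.34 and 6.46 in NSC and 7.37, 7.51 and 7.33 in shBRG1. Its relative PTGR3 had a change of -0.27 whose adjusted p of 0.032 was lost whichever array was left out. GCAT, which makes glycine from a threonine product, moved from 6.77 ± 0.21 to 7.71 ± 0.09, and SCLY, which releases selenium from selenocysteine, from 5.72 ± 0.19 to 6.65 ± 0.19. OMA1, a stress-activated protease of the inner mitochondrial membrane, moved from 5.81 ± 0.16 to 6.62 ± 0.14 and was near the edge of the rule. In HSD17B10 and GCAT, NSC replicate 2 lay 0.21 and 0.27 below the next control.

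Among ubiquitin genes DDA1, a subunit of CUL4 ligases built on DDB1, gave 7.84, 7.65 and 7.84 in NSC and 8.92, 8.98 and 8.97 in shBRG1. The shBRG1 arrays lay within 0.07 of each other and more than 1 above the controls. The scaffold CUL4B, a partner given without a test, lay lower (from 7.20 ± 0.16 to 6.61 ± 0.11), CUL4A did not (-0.10), and DET1 moved from 7.21 ± 0.04 to 7.54 ± 0.03. DTL (0.16) and DCAF1 (0.07) had smaller changes. FBXL16, an F-box protein, gave 5.13, 5.14 and 5.71 in NSC and 6.52, 6.37 and 6.05 in shBRG1. NSC replicate 3 lay 0.57 above the other controls, which left the smallest distance between groups of all 53. TRIM32 (change 0.94), an E3 ligase, USP40 (0.92), of the deubiquitinase family, and FBXO36 (0.83), an F-box protein, were the others. FBXO36 no longer met the criteria without NSC replicate 1 or shBRG1 replicate 1 or 2.

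ANKRD52, an ankyrin repeat subunit of the protein phosphatase PP6, gave 8.28, 8.21 and 8.28 in NSC and 9.48, 9.47 and 9.43 in shBRG1. Its arrays lay close together within each group, with SDs of 0.04 in NSC and 0.03 in shBRG1 beside a change of 1.20. The sister subunits ANKRD28 and ANKRD44 had changes of -0.10 and -0.03 (adjusted p = 0.66 and 0.85), and these were the other 2 of the 3 measured genes of 7 listed for PP6.

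Of the 6 chromatin and transcription genes, CBX6, a chromobox subunit of the Polycomb complex PRC1, gave 6.999, 6.73 and 7.04 in NSC and 7.83, 8.10 and 8.01 in shBRG1. It was the only member with a second probe set, and that probe set was dim and did not follow, with a mean of 4.94 in NSC and 5.01 in shBRG1 and overlapping groups. The mean of both gave a change of 0.57. Of PRC1 partners gathered after the raised genes were known, PCGF5 lay lower without overlap (from 8.21 ± 0.17 to 6.999 ± 0.03), as did PCGF3 (from 7.44 ± 0.12 to 6.95 ± 0.12) and PCGF6 (from 6.29 ± 0.06 to 6.09 ± 0.04). PCGF1 lay higher without overlap (from 6.12 ± 0.08 to 6.42 ± 0.04). PCGF2 (-0.07) overlapped, and CBX2, CBX7, PHC1, PHC2, PHC3 and RING1 had changes of -0.11 to 0.09, with overlap in all but RING1. In the CBX family CBX5 rose (0.31, adjusted p = 0.019, lost when replicate 1 or 2 of either group was left out, highest 0.064).

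IRX6, a homeobox transcription factor, gave 5.67, 5.77 and 5.70 in NSC and 6.70, 7.14 and 6.71 in shBRG1. Its shBRG1 replicate 2 lay 0.44 above the next treated array. The 5 other Iroquois genes had changes of -0.16 to 0.07 and did not pass. MED24, a subunit of the Mediator tail, gave 7.69, 7.48 and 7.61 in NSC and 8.43, 8.68 and 8.67 in shBRG1. Among 27 other measured MED genes 2 rose and 1 fell, MED4 (-0.32, adjusted p = 0.012), against 9.78% and 7.19% of all named genes. The rises were those of MED13L (0.30, lost on leaving out NSC array 1 or 2 or shBRG1 array 1, 2 or 3) and MED16 (0.34, lost on leaving out NSC array 1, 2 or 3 or shBRG1 array 2 or 3). FTO, which removes methyl groups from adenosine in RNA, moved from 7.65 ± 0.03 to 8.49 ± 0.04. DYRK1B, a kinase linked to quiescence, moved from 5.96 ± 0.14 to 6.79 ± 0.22, whereas its near relative DYRK1A fell (-0.66, SE 0.07, adjusted p = 0.0014), from 8.63 ± 0.03 to 7.97 ± 0.08. DYRK1B no longer met the criteria without NSC replicate 1 or shBRG1 replicate 2 or 3.

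**Figure D4:**
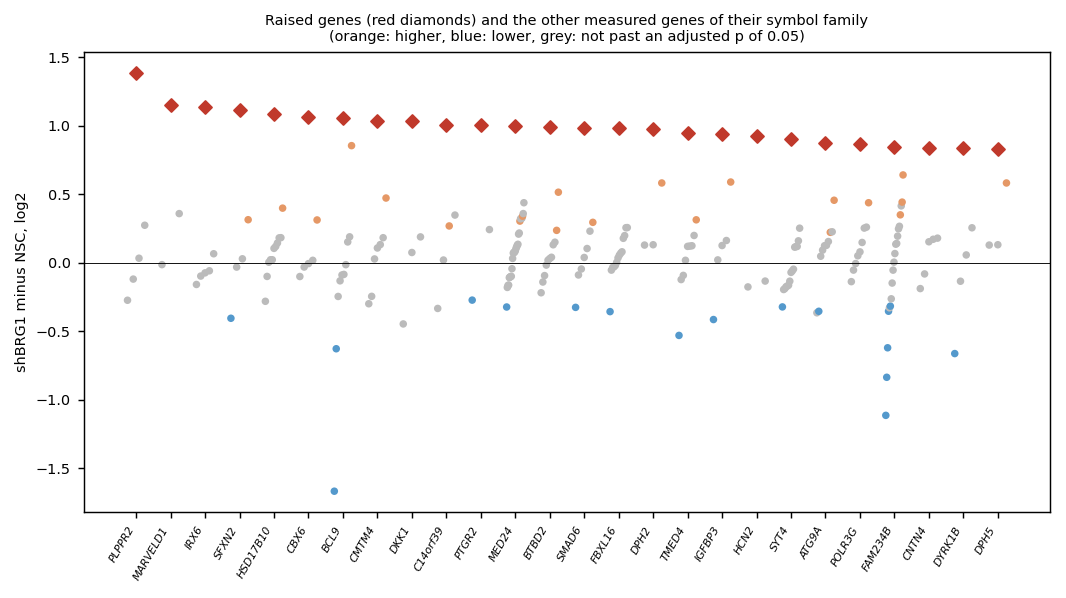
Change (log2, shBRG1 minus NSC) of raised genes (red diamonds) and of the other measured genes that share their symbol stem (circles; orange, higher; blue, lower; grey, not past an adjusted p of 0.05 in limma; the DPH relatives stand under both DPH2 and DPH5). Of 198 relatives 20 were higher and 17 lower. Relatives leave out the raised genes themselves, so genes that met the rule cannot appear among the circles.

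In trafficking, M6PR, the cation-dependent mannose 6-phosphate receptor that carries enzymes to lysosomes, gave 7.53, 7.54 and 7.63 in NSC and 8.60, 8.52 and 8.50 in shBRG1. Of 2 measured partners, given without a test, the larger receptor IGF2R had a change of 0.03, and NAGPA, which uncovers the mannose 6-phosphate tag, moved from 6.51 ± 0.12 to 6.82 ± 0.09 without overlap. TMED4, a p24 cargo protein of early secretion, moved from 8.04 ± 0.08 to 8.99 ± 0.03, while TMED10 fell (-0.53, SE 0.08, adjusted p = 0.0043). ATG9A, the membrane-spanning lipid scramblase of autophagy, moved from 6.76 ± 0.12 to 7.63 ± 0.01, and its shBRG1 arrays were the closest together of all 53, within 0.02. Of 22 measured lysosome and autophagy genes 6 rose and 2 fell, against 9.78% and 7.19% of all named genes, and the list median was 0.14. The rises were those of ATG9A, which was high by choice, ATG16L1 (0.47, adjusted p = 0.0041), the cathepsins CTSA (0.55, adjusted p = 0.0052) and CTSB (0.35), the kinase ULK1 (0.37, adjusted p = 0.01) and HEXA (0.35). ATG5 (-0.35) and SQSTM1 (-0.36) fell. The call of HEXA was lost on leaving out NSC array 2 or 3 or shBRG1 array 1, 2 or 3 (highest adjusted p 0.096), that of ATG5 was lost on leaving out NSC array 1 or shBRG1 array 1 or 3 (0.065) and that of SQSTM1 was lost on leaving out NSC array 1 or 3 or shBRG1 array 1 or 3 (0.070).

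Of 3 microtubule genes, KATNAL1, a katanin-like severing enzyme, gave 6.60, 6.62 and 6.63 in NSC and 7.50, 7.49 and 7.64 in shBRG1. Its controls lay within 0.02 of each other. TBCCD1, a protein with a tubulin cofactor C domain, moved from 6.60 ± 0.12 to 7.41 ± 0.05, and MATCAP1, a tubulin carboxypeptidase that removes the terminal tyrosine, from 7.08 ± 0.06 to 7.88 ± 0.03. Among partners given without a test, the ligase TTL, which restores that tyrosine, had a change of -0.15, the other carboxypeptidases VASH1 and VASH2 -0.07 and 0.14, their binding protein SVBP -0.17, and the katanins KATNA1 and KATNAL2 -0.17 and 0.00. MATCAP2, the relative of MATCAP1, had a change of 0.21, and KATNBL1 moved from 4.95 ± 0.13 to 5.45 ± 0.22, both without overlap. The groups of TTL, VASH2 and KATNA1 did not overlap either, and 35.5% of all named genes had groups without overlap in either direction.

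Membrane proteins with less well known roles made up 8 members. MARVELD1, a MARVEL domain protein, gave 6.24, 6.04 and 5.91 in NSC and 7.22, 7.23 and 7.20 in shBRG1, and CMTM4, of the same superfamily, gave 7.92, 7.72 and 7.83 in NSC and 8.92, 8.92 and 8.75 in shBRG1. Both had shBRG1 values at least 0.82 above every control. Among the other CMTM genes CMTM3 rose (0.47, SE 0.09, adjusted p = 0.012), the 1 of 7 to pass. TMEM143 (change 0.96), SLC68A1 (0.86), TMEM184B (0.86), TMEM120B (0.85), FAM234B (0.85) and TMEM69 (0.82) completed the group. FAM234A, the relative of FAM234B, rose as well (0.64, SE 0.08, adjusted p = 0.0023).

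The remaining members were C14orf39, known as a component of the synaptonemal complex in meiosis, LOC90246, BTBD2 and AMN1. C14orf39 gave 4.41, 3.88 and 4.12 in NSC and 5.09, 5.12 and 5.24 in shBRG1, and LOC90246 gave 4.87, 4.94 and 5.19 in NSC and 5.81, 6.16 and 6.05 in shBRG1. BTBD2, a BTB domain protein, gave 7.97, 7.81 and 8.06 in NSC and 8.97, 8.95 and 8.90 in shBRG1, and AMN1 moved from 5.99 ± 0.15 to 6.86 ± 0.09. The relative BTBD3 rose (0.51, adjusted p = 0.0044).

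Taking the 25 symbol families with 3 to 30 measured genes together, 20 of 198 relatives rose (10.1%) and 17 fell (8.59%), against 9.78% and 7.19% of all named genes, and their median change was 0.04. These shares are near the background. Of the calls, 8 higher and 9 lower held with any 1 array left out, with median centring, with cyclic loess and with probe sets averaged. Of those not yet named, ATG14 (0.46) and BCL6 (0.85) were higher, and BCL2 (-1.67), FAM30A (-1.11), FAM124B (-0.84) and FAM120B (-0.62) lower. Relatives here are genes that share a symbol stem. A shared BCL, FAM, C14orf, ATG or MED symbol by itself implies no relation by descent. The calls of ATG2B, BTBD9, C14orf119, FAM200C, FAM229B, HSD17B4 and TMED3 (higher) and of BCL7A, FAM124A, FAM229A and FBXL12 (lower) were lost in at least 1 of these fits.

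Genes next to the members on the chromosome were compared as well, in the order of the RefSeq promoter table. The next named gene there could be far away. The starts lay 6069513 bases apart for FAM95A and RPIA and 2486952 for PCDH15 and DKK1. The shares below are therefore not those of close neighbours alone. Of 90 named neighbours that are not members, 12 rose (13.3%) and 5 fell (5.56%), against 9.78% and 7.19% of all named genes, with a median change of 0.03. The 45 mapped members lay on 17 chromosomes. Chromosome 12 held 6 of them (13.3%, against 4.81% of named genes), chromosome 2 also 6 (7.11% of named genes) and chromosome 22 held 4 (8.89%, against 1.99%). The chromosomes named here were picked from the counts of all chromosomes, and these shares were not tested. Members without a matched promoter were not counted, so the shares over all members may differ and another chromosome may hold more. In 4 cases a neighbour started within 1000 bases in the opposite direction. PRKG1-AS1 beside DKK1 rose (change 0.27, adjusted p = 0.048) from a dim level, while ARL3 beside SFXN2 (0.00), RPGRIP1L beside FTO (0.18) and TRIP12 beside FBXO36 (0.00) did not pass. The call of PRKG1-AS1 was near the threshold and was not followed with arrays left out.

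A list of type I interferon and antiviral genes, fixed because all samples carried a lentivirus, had 1 of 25 measured genes higher and 0 lower, against 9.78% and 7.19% of all named genes. The 1 was the dim IFIT2 (0.38, adjusted p = 0.018, lost on leaving out NSC array 1 or 2 or shBRG1 array 1 or 3), and the list median was 0.04. IFIT1, MX2 and IFIH1 were dim too, with NSC means of 2.41, 3.01 and 2.38. Because both groups were infected, this contrast cannot show a response to infection. Of 35 genes of heparan and chondroitin sulfate synthesis, none of them a member, 5 rose and 8 fell, against 9.78% and 7.19% of all named genes. Of these calls 2 higher and 3 lower held over the other scalings, averaged probe sets and each array left out, and those of EXTL2, SDC1, SDC2, CHPF2, CHST11, CHST15, GPC1 and HS3ST2 did not (highest adjusted p 0.053 to 0.37). The 4 with the smallest p were SDC4 (-0.86, adjusted p = 0.0016), NDST1 (0.55), HS6ST1 (-0.72) and HS2ST1 (0.48). No gene of the list of phosphatase 1 and 2A regulators was analysed here.

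The threshold cut through a continuous range. The last genes inside were OMA1 (5.96, 5.65 and 5.81 in NSC and 6.56, 6.78 and 6.53 in shBRG1), TBCCD1 (6.57, 6.49 and 6.73 in NSC and 7.41, 7.46 and 7.36 in shBRG1) and MATCAP1 (7.09, 7.02 and 7.13 in NSC and 7.85, 7.90 and 7.89 in shBRG1), with changes of 0.82, 0.81 and 0.801. The first outside were NT5DC1 (0.797), the metallothionein MT1X (0.79) and the acyl-CoA thioesterase ACOT13 (0.79), whose values were 6.75, 6.56 and 6.57 in NSC and 7.48, 7.40 and 7.40 in shBRG1, 7.30, 6.99 and 7.27 in NSC and 7.94, 8.04 and 7.97 in shBRG1 and 7.51, 7.55 and 7.61 in NSC and 8.38, 8.27 and 8.39 in shBRG1. These 3 also had groups that did not overlap. In all, 40 genes that met the other criteria had a change of 0.7 to 0.8. A further 5 genes reached 0.8 with an shBRG1 mean under 5, among them TRAM1L1 (0.81), BCL6 (0.85) and CCDC169-SOHLH2 (1.02).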

How the data were processed

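Total RNA of 3 NSC and 3 shBRG1 samples was measured on 1 single-colour array each. Per the submitters' processing notes, the authors used RMA, oligo 1.27, limma 3.19 and R 3.1.0, and the deposited table holds log2 expression, 1 value for each probe set and array. RMA gives arrays a common distribution, which hides any global shift and can understate changes of dim probe sets. Groups follow the lentivirus label. The number of arrays limits the precision, and p-values reflect only how far these 6 arrays differ, which can be technical variation.

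Of 52299 probe sets 15828 carried 1 symbol in the platform annotation (0 several, 36471 none); all were updated through the GRCh38.p14 gene table. The probe set with the highest mean over 6 arrays was kept, giving 14883 genes. Members were chosen by the rule that opens the report; those named with values by array are the 20 with the largest change, the first of each role group and the 3 on either side of the threshold. Other members are given by mean ± SD (n = 3) or change. The members and lists were chosen with earlier results of these data known, and the role groups and partner sets after the members were known. Other genes were tested by limma 3.58.1 (R 4.3.3; lmFit, eBayes, two-sided, without covariates), with Benjamini-Hochberg adjustment over all 14883 genes. With 3 arrays a group the smallest exact permutation p is 0.1. Relatives share a symbol after trailing digits and at most 1 letter are removed. Tested on simulated data (14883 genes), the fit found 51 of 100 changes of 0.5 and 91 of 100 changes of 1, and 9 of its 151 calls were false. Alternatives were median centring, cyclic loess, averaged probe sets, leaving out each array, stricter cuts, medians, trend and robust options, dim genes left out, a replicate block and every probe set. Protein features were planned but not used here. Figures were drawn with matplotlib 3.10.9.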

Additional observations from a re-analysis of the deposited data

Results flagged for a closer look

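Probe sets without a gene symbol entered no comparison above, and some of them passed the same numerical criteria. Of 36471 such probe sets, 151 were higher in shBRG1 by at least 0.8 with an shBRG1 mean of at least 5 and no overlap with NSC, and 149 met the mirrored criteria. These are counts of probe sets and not of genes, and are not set against the 76 named genes. No gene is assigned to these probe sets here. Groups of 3 arrays are too small for the check of single outlying samples.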

How the results depend on the processing

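The number of genes meeting the rule was 59 after median centring (all 53 members among them), 43 after cyclic loess (43 of the 53), 52 with probe sets averaged (CBX6 lost), 61 with medians, 48 with an shBRG1 mean of at least 6, and 17 with a change of at least 1. Without each array in turn it ran from 51 to 63, with 47 to 50 of the 53 members. Cyclic loess removed DPH5, DTWD2, DYRK1B, FAM234B, FTO, MATCAP1, OMA1, TBCCD1, TMEM184B and TMEM69. Of 477 member changes recomputed, 469 moved by less than 1 pooled SD, 8 by more and 0 changed sign. Many of these outcomes were fixed in advance. Leaving out 1 array from groups this small cannot shift a change by 1 pooled SD. It also cannot reverse groups that do not overlap. Averaging left the 52 members with 1 probe set unchanged. These counts are therefore no measure of stability. The 8 larger moves were that of CBX6 with probe sets averaged and the others under cyclic loess. The lowest change was 0.57 (CBX6, averaged) and otherwise 0.72. Over all named genes the higher calls numbered 1455 and the lower 1070. With the replicate block they were 870 and 738; same-numbered arrays had deviations that correlated at -0.14 to -0.03, so the numbers were not taken as pairs. Leaving out each array gave 840 to 1055 higher and 694 to 859 lower. Higher genes made up 57.6% of calls as deposited and 47.7% after cyclic loess (1212 higher, 1329 lower). Relatives counted 14 higher and 21 lower after cyclic loess, and fixed lists 20 and 28 against 22 and 25. Dim members, with an NSC mean under 5, numbered 5, and their fold may be understated by the processing. All 53 were chosen for a large change on these same arrays, so the changes given may also be overstated.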
